A study of Homo sapiens with 4 samples.

Results

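The genes described here are 33 genes of autophagy and the lysosome, out of 60617 genes in the deposited expression table. They were chosen by name from the steps of the pathway, with earlier results of these data known. All 33 symbols were found, each as a single Ensembl gene. The series sequenced RNA of 2 prostate cancer lines, both human, with and without morusin, a prenylated flavonoid of mulberry. Of the 4 libraries, the first was 22Rv1, a prostate carcinoma line that came from a xenograft, grown in RPMI medium without morusin (0 µM), and the second was 22Rv1 exposed to 75 µM morusin for 6 h. The third was PC3, a line from a bone metastasis of prostate cancer, grown in F12 medium without morusin, and the fourth was PC3 exposed to 46 µM for 6 h. Both media held heat-inactivated fetal bovine serum, penicillin and streptomycin. Dose and medium differed with the line and cannot be told apart from it. The labels do not say whether the untreated cells received the solvent of the drug.

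Macroautophagy encloses cytoplasm in a double membrane, the autophagosome, which then fuses with the lysosome, where hydrolases degrade the contents. A kinase complex around ULK1 starts the process, a lipid kinase complex marks the membrane with phosphatidylinositol 3-phosphate, and a ubiquitin-like conjugation system attaches proteins of the ATG8 family (LC3 and GABARAP proteins) to the growing membrane. Receptors such as SQSTM1 hold cargo against the ATG8 proteins, and the transcription factors TFEB and TFE3 act on many genes of both autophagy and the lysosome. The activity of this pathway is set largely by phosphorylation, lipidation and membrane traffic, none of which RNA levels report.

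Levels are FPKM, fragments per kilobase of transcript scaled to the library total, as the authors deposited them. Each group held 1 library, so a difference within a line has no replicate check and no p-value. The depth, inferred from the steps between low values, was roughly 23.5 and 19.1 M read pairs (M, mega) in 22Rv1 without and with morusin and 40.6 and 28.6 M in PC3, at which 1 FPKM of a transcript of 2 kb rests on 38.2 to 81.2 pairs. The 4 epithelial markers summed to between 246 and 323 FPKM. The 6 prostate luminal markers summed to 739 and 716 FPKM in 22Rv1 and to 179 and 103 FPKM in PC3. In untreated PC3 KLK3 was listed at 0, and CDH1 was at 0.19 FPKM against 86.3 FPKM in untreated 22Rv1. The 4 leukocyte markers summed to at most 0.458 FPKM, the 3 endothelial markers to at most 1.07 FPKM and the 4 fibroblast markers to between 1.70 and 3.39 FPKM.

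A change is log2 of (treated FPKM + 1) over (untreated FPKM + 1), a scale that understates the change of low genes, for genes that reached 1 FPKM in either library of a line, here called measured. In bulk RNA a lower level per cell and fewer cells that carry a transcript cannot be told apart. No member differed by 2-fold or more between treated and untreated cells of either line. In 22Rv1 this was 0 of 31 measured members in each direction, where 3.48% of all 13361 measured genes were higher by that size and 1.02% lower. In PC3 it was 0 of 33 members, where 1.24% of all 12907 measured genes were higher and 2.64% lower. The 2 members not measured in 22Rv1, OPTN and GABARAPL1, were below 1 FPKM in both of its libraries. At a smaller size of 1.5-fold, 22Rv1 had 1 member higher, ULK1, and 1 lower, RB1CC1, where 13.5% of all genes were higher and 9.82% lower. PC3 had 0 members at least 1.5-fold higher and 1 lower, ATG2A, where 3.59% of all genes were higher and 11.3% lower. As shares of the members these counts lay below those over all genes.

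The members moved by little in either direction. Their median change was -0.03 in 22Rv1 and 0.05 in PC3, beside -0.01 and -0.05 over all measured genes. In 22Rv1 13 of 31 members were above 0, beside 49.4% of all genes, and in PC3 17 of 33, beside 44.2%. The median size of the change, without its sign, was 0.153 in 22Rv1 against 0.34 over all genes and 0.183 in PC3 against 0.249. Members and all genes were not matched for level or transcript length in this comparison. The median level of the members was 17.4 FPKM in untreated 22Rv1 and 24.4 FPKM in untreated PC3. Over all genes at 1 FPKM or more it was 9.72 and 9.90 FPKM. Scaling each library to the same FPKM sum shifted the median of all genes to -0.18 in 22Rv1 and -0.14 in PC3, and scaling to the same sum over nuclear protein-coding genes shifted it to -0.20 and -0.17. The members' medians moved with it, to -0.21 and -0.24 in 22Rv1 and to -0.04 and -0.07 in PC3, so the sign of a small change depends on the scaling. Over all genes, 77.4% of the 2-fold changes in 22Rv1 were higher as deposited, 42.1% with equal sums and 36.3% with equal protein-coding sums. In PC3 these shares were 31.9%, 23.7% and 21.1%. At 1.5-fold they were 57.9%, 29.8% and 25.8% in 22Rv1 and 24.1%, 15.2% and 12.7% in PC3.

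**Figure D1:**
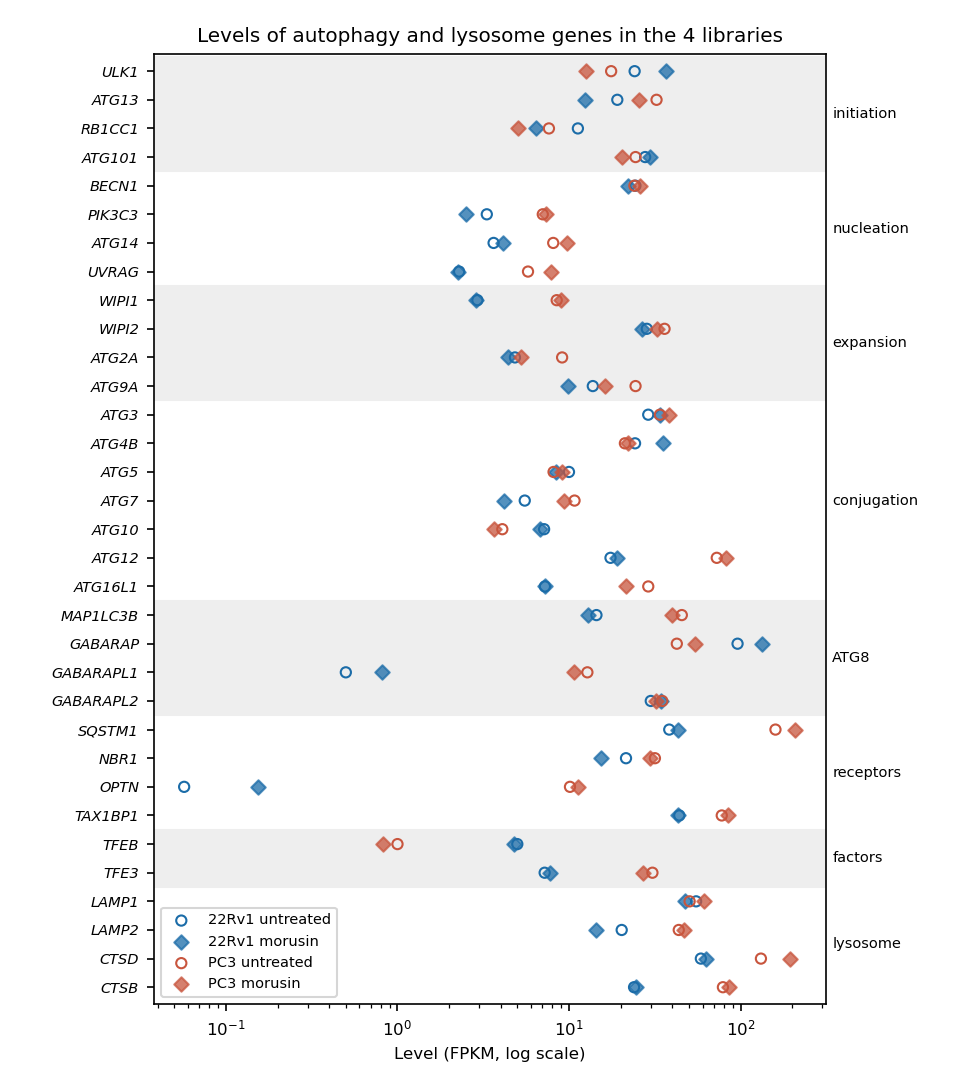
Level of each of the 33 genes in the 4 libraries (x axis, FPKM on a log scale), in order of the steps of the pathway. Open circles are untreated and filled diamonds morusin-treated libraries, 1 library each, with 22Rv1 in blue and PC3 in red; within a line the marks mostly lie close together, and the widest separations are between the lines, as for OPTN and GABARAPL1.

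The first step is the ULK1 complex. ULK1 is its protein kinase, ATG13 and ATG101 form its regulatory pair, and RB1CC1 (FIP200) is its scaffold. ULK1 (chr12:131894651-131923167, GRCh38) was at 24.1 FPKM in untreated and 36.7 FPKM in treated 22Rv1, and at 17.6 and 12.6 FPKM in PC3. The treated library was thus the higher of the pair in 22Rv1 and the lower in PC3. The changes were 0.59 and -0.46, and the value in 22Rv1 lay just past the 1.5-fold size, which it did not reach with either equal sum (0.39 and 0.36). The 95% counting interval of the log2 ratio of FPKM, which covers counting error only and rests on the rough depths, ran from 0.54 to 0.67 in 22Rv1 and from -0.57 to -0.41 in PC3.

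RB1CC1 (chr8:52622456-52745843) was at 11.3 and 6.4 FPKM in untreated and treated 22Rv1 and at 7.64 and 5.04 FPKM in PC3. It was lower in the treated library of both lines, with changes of -0.73 and -0.52. ATG13 (chr11:46617527-46674818) was at 19.1 and 12.4 FPKM in 22Rv1 and at 32.4 and 25.5 FPKM in PC3. Its change of -0.58 in 22Rv1 lay just short of the 1.5-fold size, and that in PC3 was -0.33. ATG101 differed least, at 27.8 and 29.7 FPKM in 22Rv1 and 24.4 and 20.3 FPKM in PC3. All 4 genes of the complex were lower in treated PC3, with a median of -0.39 as deposited. This count of 4 was the same under every scaling and with the trend on transcript length removed. Of all genes in PC3, 44.2% were above 0 as deposited. Their median was -0.05 as deposited and -0.14 and -0.17 with the equal sums. Under each of these scalings 0 of the 4 genes of the complex lay above that median. In 22Rv1, 2 of the 4 were lower as deposited and 3 of the 4 with either equal sum. There 2 of the 4 lay above the median of all genes each time.

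To test the response common to both lines, limma was fitted with line and treatment as terms and p-values adjusted over 13980 genes. It called 0 of 33 members, where 0.351% of all genes were called higher and 0.236% lower. At an unadjusted p under 0.05 there were 3 members, RB1CC1, ATG9A and ATG13, beside 2587 of all genes. The smallest adjusted p of limma was 0.192, for RB1CC1, whose shared log2 change was -0.62 with a standard error of 0.22. ATG9A had an adjusted p of 0.233 in limma, with a shared change of -0.50, and ATG13 one of 0.264, with -0.46. Calls depended on the scaling. With equal sums limma called RB1CC1 (adjusted p = 0.0299) and ATG9A (adjusted p = 0.0461), both lower, and with equal protein-coding sums it called RB1CC1, ATG9A and ATG13. Those scalings called 1591 and 1853 of all genes, of which 19.7% and 15.8% were higher, where 59.8% of the 82 calls on the values as deposited were higher. With the length trend removed the adjusted p of limma for RB1CC1 was 0.548. Over all settings it ran from 0.0188 to 1.

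**Figure D2:**
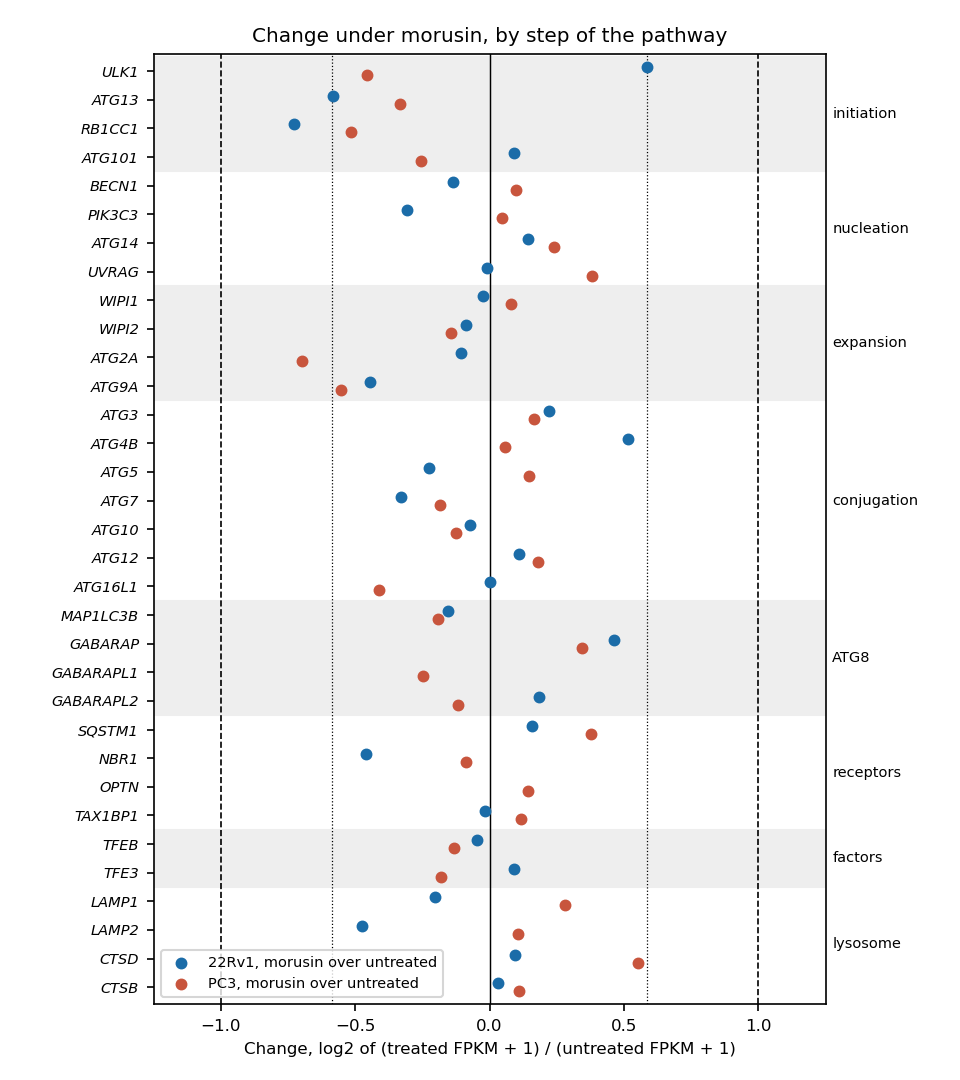
Change of each gene under morusin (x axis, log2 of treated FPKM + 1 over untreated FPKM + 1) in 22Rv1 (blue) and PC3 (red), in order of the steps; each point compares 2 single libraries, so no error bar is drawn. Dashed lines mark 2-fold and dotted lines 1.5-fold; no point reaches a dashed line, and ULK1, RB1CC1 and ATG2A alone pass a dotted one, ULK1 at 0.59 in 22Rv1 by a small margin.

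The second step is the class III phosphatidylinositol 3-kinase complex. PIK3C3 (VPS34) is its lipid kinase, BECN1 (beclin 1) a shared subunit, ATG14 the subunit that directs it to autophagosome formation, and UVRAG the alternative subunit used in endosomal traffic. BECN1 was level across the study, at 24.4 and 22.1 FPKM in untreated and treated 22Rv1 and 24 and 25.8 FPKM in PC3. UVRAG was at 2.29 and 2.27 FPKM in 22Rv1 and at 5.77 and 7.80 FPKM in PC3, with a change of 0.38 in PC3. ATG14 was at 3.63 and 4.11 FPKM in 22Rv1 and 8.09 and 9.72 FPKM in PC3. PIK3C3 was at 3.32 and 2.49 FPKM in 22Rv1 and 7.03 and 7.29 FPKM in PC3. All 4 were higher in treated PC3 as deposited, with a median of 0.17, but 3 of 4 with equal sums and 2 of 4 with equal protein-coding sums. Relative to the median of all genes the count was 4 of 4 under each of these scalings. In 22Rv1 only ATG14 was higher as deposited, and none with equal sums. Relative to the median of all genes the count there was 2 of 4 both times.

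The third step supplies lipid and reads the lipid mark. ATG9A is the transmembrane lipid scramblase carried on small vesicles, ATG2A transfers lipid between membranes, and WIPI1 and WIPI2 bind phosphatidylinositol 3-phosphate. ATG2A (chr11:64894546-64917248) was at 4.84 and 4.43 FPKM in untreated and treated 22Rv1 and at 9.11 and 5.23 FPKM in PC3. The treated PC3 library was near the levels of 22Rv1, with a change of -0.70 in PC3 and -0.11 in 22Rv1. The counting interval of the log2 ratio ran from -0.94 to -0.66 in PC3 and from -0.33 to 0.08 in 22Rv1. ATG9A (chr2:219219380-219229717) was at 13.8 and 9.83 FPKM in 22Rv1 and at 24.4 and 16.3 FPKM in PC3. It was lower in the treated library of both lines, with changes of -0.45 and -0.55. A read-through gene on the same strand covers 38.8% of its exonic bases and was at 1.21 to 2.87 FPKM. WIPI2, at 26.7 to 36.0 FPKM, was below 0 in both lines with changes of -0.09 and -0.14. WIPI1 was at 2.92 and 2.86 FPKM in 22Rv1 and 8.47 and 9.0 FPKM in PC3. On the opposite strand ARSG covers 24.3% of the exonic bases of WIPI1. It was at 2.33 and 2.67 FPKM in 22Rv1 and 0.527 and 0.708 FPKM in PC3. What share of the reads came from ARSG was not tested. As deposited, 4 of 4 genes of this step were lower in treated 22Rv1, and 3 of 4 with the length trend removed. In treated PC3 it was 3 of 4 as deposited, and 4 of 4 with either equal sum or the length trend removed. Relative to the median of all genes, 1 of 4 was higher in PC3 each time. In 22Rv1 it was 0 of 4 as deposited and 1 of 4 with either equal sum.

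The conjugation step uses enzymes that resemble those of ubiquitin. ATG7 is the activating enzyme, ATG10 and ATG3 the conjugating enzymes, ATG12, ATG5 and ATG16L1 the complex that directs lipidation, and ATG4B the protease that trims ATG8 proteins. ATG4B (chr2:241637213-241673857) showed the widest change of the 7, at 24.2 and 35.1 FPKM in 22Rv1 and at 21.2 and 22.1 FPKM in PC3. Its change was 0.52 in 22Rv1 and 0.06 in PC3. ATG3 was at 28.9 and 33.9 FPKM in 22Rv1 and at 33.9 and 38.1 FPKM in PC3, and ATG12 at 17.4 and 18.9 FPKM and at 72.6 and 82.4 FPKM. These 3 were above 0 in both lines as deposited, and with equal sums ATG12 in 22Rv1 and ATG4B in PC3 were below 0, joined with equal protein-coding sums by ATG3 in 22Rv1.

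ATG7, at 5.52 and 4.19 FPKM in 22Rv1 and 10.8 and 9.35 FPKM in PC3, was below 0 in both lines, with changes of -0.33 and -0.18. ATG16L1 had the same level, 7.23 FPKM, in both 22Rv1 libraries, and was at 29 and 21.5 FPKM in PC3, a change of -0.41. ATG5 was at 9.99 and 8.41 FPKM in 22Rv1 and at 8.12 and 9.10 FPKM in PC3. ATG10 was at 7.16 and 6.76 FPKM in 22Rv1 and 4.08 and 3.66 FPKM in PC3. On the opposite strand RPS23, a ribosomal protein gene, covers 6.9% of the exonic bases of ATG10 and was at 142 and 311 FPKM in 22Rv1 and 123 and 202 FPKM in PC3. VGLL4 covers 18.1% of those of ATG7 and was at 10.9 to 30.2 FPKM. The labels do not say whether counting used strand, and the share of reads from these neighbours was not tested.

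The ATG8 proteins are the ubiquitin-like proteins that become attached to the membrane. GABARAP (chr17:7240014-7242770) was at 96.0 and 133 FPKM in untreated and treated 22Rv1 and at 42.5 and 54.1 FPKM in PC3. It was higher in the treated library of both lines, with changes of 0.46 and 0.34, and stayed above 0 under both equal sums. With the length trend removed they were 0.07 and 0.19, and the shared change was 0.14 beside 0.40 as deposited. Its adjusted p in limma was 0.273. MAP1LC3B (LC3B), the member most used as a marker of autophagosomes, was at 14.4 and 12.9 FPKM in 22Rv1 and at 45.4 and 39.6 FPKM in PC3, with changes of -0.15 and -0.19. GABARAPL2 was at 29.9 and 34.2 FPKM in 22Rv1 and 34.9 and 32.2 FPKM in PC3. GABARAPL1 was at 0.50 and 0.817 FPKM in 22Rv1, from about 8.49 and 11.3 read pairs, and at 12.8 and 10.6 FPKM in PC3. GABARAPL1 was thus the ATG8 member that separated the lines most.

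The makeup of the ATG8 transcripts differed between the lines more than with treatment. Summed over the 7 genes of the family, the level was 149 and 195 FPKM in untreated and treated 22Rv1 and 137 and 138 FPKM in PC3. GABARAP made up 64.6% of the sum in untreated and 68.2% in treated 22Rv1, and 31.0% and 39.2% in PC3. MAP1LC3B made up 9.72% and 6.62% in 22Rv1 and 33.2% and 28.7% in PC3. MAP1LC3A, the close relative of MAP1LC3B, was at 7.44 and 13.7 FPKM in 22Rv1, so that in its treated library the 2 LC3 genes stood about level, and it was listed at 0 in both PC3 libraries. MAP1LC3B2, nearly identical in sequence to MAP1LC3B, was at 0.319 to 1.62 FPKM, and how the authors divided reads between them is not stated.

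**Figure D3:**
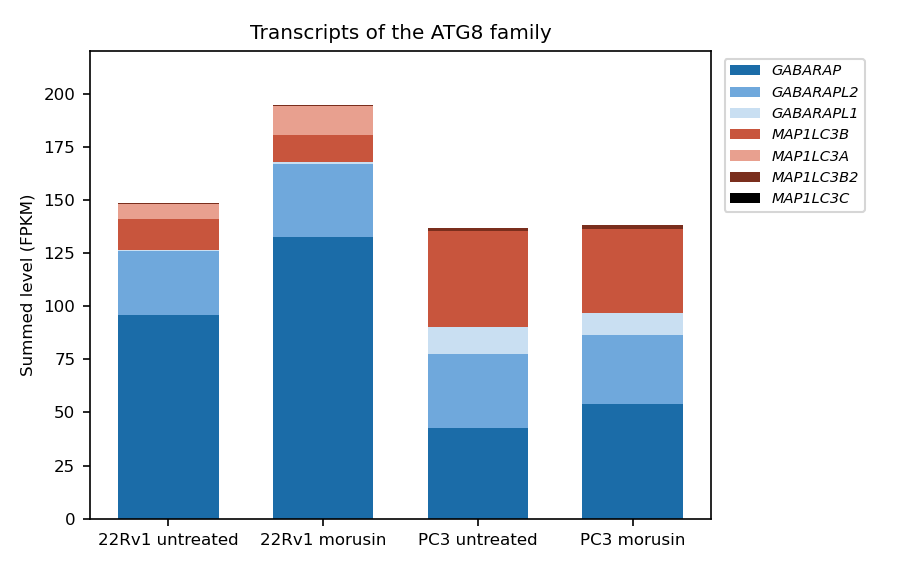
Summed level of the 7 ATG8 family genes in each library (y axis, FPKM), with each gene as a part of the bar and 1 library per bar; MAP1LC3C is at or near 0 in every library. The GABARAP part is the largest in 22Rv1, at 64.6% and 68.2%, and in PC3 MAP1LC3B and GABARAP are of similar size without morusin, at 33.2% and 31.0%.

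The receptors bind ubiquitinated cargo and ATG8 proteins at once. SQSTM1 (p62; chr5:179806398-179838078) was at 38.4 and 42.9 FPKM in untreated and treated 22Rv1 and at 160 and 208 FPKM in PC3. The treated PC3 library had the highest level of any member in the study. The changes were 0.16 and 0.38, with a counting interval of the log2 ratio from 0.34 to 0.42 in PC3, and the value in 22Rv1 fell below 0 with equal sums. MRNIP, on the opposite strand, covers 20.7% of the exonic bases of SQSTM1 and was at 3.0 to 9.5 FPKM. NBR1 was at 21.5 and 15.3 FPKM in 22Rv1 and at 31.7 and 29.8 FPKM in PC3, with changes of -0.46 and -0.09. TAX1BP1 was at 43.9 and 43.3 FPKM in 22Rv1 and at 77.6 and 84.2 FPKM in PC3. OPTN (optineurin) was at 0.0571 and 0.153 FPKM in 22Rv1, from about 4.51 and 9.85 read pairs, against 10.1 and 11.3 FPKM in PC3. Untreated 22Rv1 was therefore near the limit of detection for OPTN, and PC3 was not. Of the summed level of these 4 receptors and CALCOCO2 (NDP52), SQSTM1 made up 32.8% in untreated 22Rv1 and 49.0% in untreated PC3.

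TFEB and TFE3 are basic helix-loop-helix transcription factors kept in the cytoplasm when mTORC1 is active. TFEB was at 4.99 and 4.80 FPKM in 22Rv1 and at 1.0 and 0.826 FPKM in PC3. TFE3 was at 7.21 and 7.75 FPKM in 22Rv1 and at 30.6 and 26.9 FPKM in PC3. The order of the factors was the same in both lines but TFE3 led by far more in PC3. With MITF added, TFE3 made up 56.5% of the summed level in untreated 22Rv1 and 88.4% in untreated PC3. The changes of the pair ran from -0.18 to 0.09 on the log2 scale over both lines.

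The lysosome is represented by LAMP1 and LAMP2, its abundant membrane glycoproteins, and by CTSD and CTSB, its aspartic and cysteine proteases. CTSD (chr11:1752752-1764573) was at 58.7 and 62.7 FPKM in untreated and treated 22Rv1 and at 131 and 193 FPKM in PC3. Its change of 0.55 in PC3 lay just short of the 1.5-fold size, with a counting interval of the log2 ratio from 0.51 to 0.59, and that in 22Rv1 was 0.09. A read-through gene on the same strand covers 41.7% of its exonic bases and was at 7.39 and 6.58 FPKM in PC3. LAMP1 was at 55.0 and 47.7 FPKM in 22Rv1 and at 50.4 and 61.4 FPKM in PC3, with changes of -0.20 and 0.28. LAMP2 was at 20.3 and 14.3 FPKM in 22Rv1 and at 43.6 and 46.9 FPKM in PC3, with changes of -0.47 and 0.10. CTSB was at 23.9 and 24.5 FPKM in 22Rv1 and at 78.9 and 85.1 FPKM in PC3. The membrane glycoproteins were thus lower in treated 22Rv1 and higher in treated PC3. All 4 genes were higher in treated PC3 as deposited and with equal sums, and 2 of 4 with equal protein-coding sums, while relative to the median of all genes the count was 4 of 4 each time. In 22Rv1, 2 of 4 were higher as deposited and 0 of 4 with equal sums or with the length trend removed. Relative to the median of all genes, 2 of 4 were higher there as deposited and with equal sums. With the length trend removed it was 1 of 4.

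TFEB and TFE3 bind E-boxes, and promoters of the members were searched for CACGTG, which reads the same on both strands, and for the longer TCACGTGA, which contains it. Windows from 250 bases before to 50 after the start were taken from RefSeq (GRCh38.p14), which matched 29 of the 33 members and not UVRAG, LAMP2, CTSB and RB1CC1. CACGTG was present for 4 of 29 members, ATG3, ATG14, CTSD and LAMP1, and in 7.26% of all 35116 windows of this length, or for 8.77% of genes. TCACGTGA was present for ATG3 and LAMP1 and in 0.98% of windows, or for 1.18% of genes. Matches of these 4 members are shown, since the changes were compared by their presence. ATG14 and CTSD have 1 match each, given with 30 bases around it. ATG3 has 2, of which the one before the start is given in the same way, and the other, which lies after the start and is the one within TCACGTGA, is not shown. For LAMP1, with 6 matches, the 250 bases before the start are given, which hold 5 of them. Capitals mark CACGTG, and each is written in the direction of its gene.
ATG14 (chr14:55411834-55411863, minus strand): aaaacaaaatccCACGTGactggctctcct
ATG3 (chr3:112561963-112561992, minus strand): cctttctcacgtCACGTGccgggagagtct
CTSD (chr11:1763957-1763986, minus strand): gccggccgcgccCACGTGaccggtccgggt
LAMP1 (chr13:113296989-113297238, plus strand): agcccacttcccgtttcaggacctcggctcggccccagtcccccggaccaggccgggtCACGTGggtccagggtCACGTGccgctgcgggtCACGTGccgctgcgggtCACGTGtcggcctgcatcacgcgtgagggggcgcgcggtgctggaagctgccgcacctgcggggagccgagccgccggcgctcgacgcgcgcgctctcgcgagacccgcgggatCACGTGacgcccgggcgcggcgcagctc

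The match shown begins 21 bases before the start in ATG14, 18 in ATG3 and 47 in CTSD, and in LAMP1 the first of them begins 192 bases before it. In PC3 the 4 members with a match had a median change of 0.26 as deposited, with 4 of 4 above 0, and the 25 without had a median of -0.13, with 10 above 0. In 22Rv1 the medians were 0.12, with 3 of 4 above 0, and -0.05, with 9 of 23 above 0. Among the other genes of the pathway, 26 of 115 with a RefSeq window held a match. Their median was 0.18 in 22Rv1 against -0.03 for the 83 measured genes without, and -0.01 in PC3 against 0.04 for the 84 without. For CACGTG the order of the medians in PC3 was therefore not the same in the wider set of genes. TCACGTGA was held by 11 of the 115. In PC3 their median was 0.06 against 0.005 without, beside 0.22 for the 2 members with it and -0.12 for those without. That order was the same in both sets. In 22Rv1 the medians were 0.44 and -0.02 in the wider set, and 0.008 and -0.03 in the members.

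More members were 2-fold apart between the lines than between treatments, as was so over all genes. Of all genes, 5600 were 2-fold apart between the untreated lines, against 601 by treatment in 22Rv1 and 501 in PC3. Between the untreated libraries 14 of 33 members were at least 2-fold apart on the FPKM + 1 scale. Of these, 2 were higher in 22Rv1, where 19.8% of all 14363 measured genes were, and 12 were higher in PC3, where 19.2% were. The 2 higher in 22Rv1 were TFEB, with a ratio of FPKM of 4.99, and GABARAP, with 2.26. The 12 higher in PC3 were UVRAG, WIPI1, ATG12, ATG16L1, MAP1LC3B, GABARAPL1, SQSTM1, OPTN, TFE3, LAMP2, CTSD and CTSB. OPTN was 177-fold higher in PC3 by FPKM, with a counting interval from 70.4 to 447, and GABARAPL1 25.6-fold, from 13.0 to 50.5. SQSTM1, ATG12, ATG16L1 and TFE3 lay between 4.0-fold and 4.25-fold. The median log2 difference of the members, 22Rv1 minus PC3, was -0.79, beside 0.11 over all genes. Members of the initiation complex were an exception, with 0 of 4 at least 2-fold apart and 3 of 4 higher in 22Rv1.

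**Figure D4:**
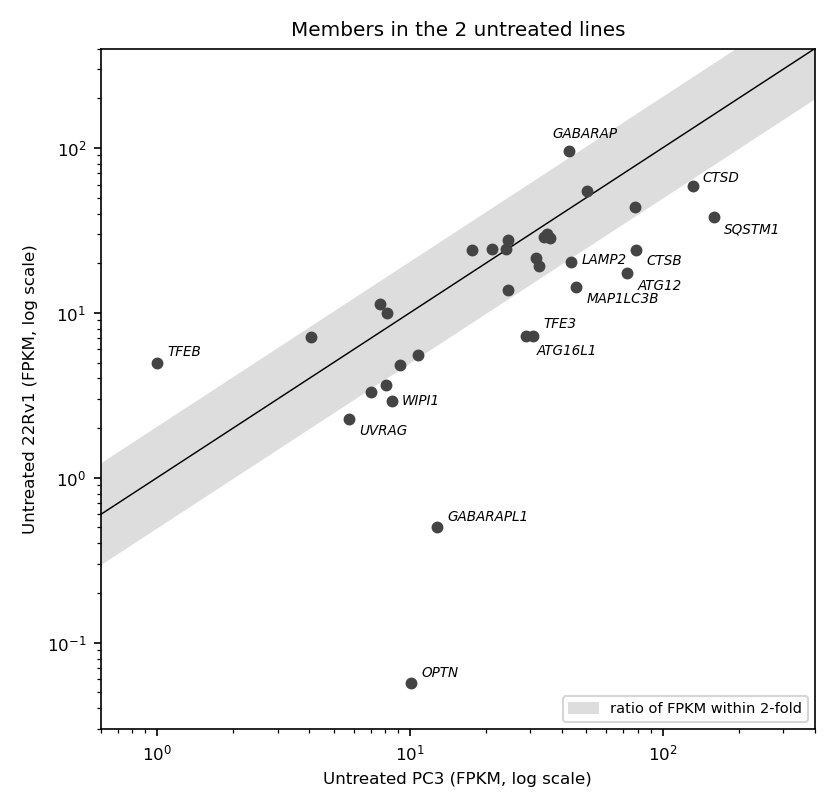
Level of each of the 33 genes in untreated PC3 (x axis) and untreated 22Rv1 (y axis), both in FPKM on log scales, 1 library each. The line marks equal levels and the grey band a ratio within 2-fold; the 14 named genes differ at least 2-fold on the FPKM + 1 scale, 12 of them below the line, where PC3 was higher.

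The change in PC3 minus that in 22Rv1 could be described by size only, since no degrees of freedom remain for a test, and it shares the untreated libraries with the comparisons above. ULK1 was the member at least 2-fold apart, with -1.04, lower in PC3. Over 11240 genes measured in both lines 3.19% were at least 2-fold apart in this direction and 1.03% in the other, in which there were 0 members. The value for ULK1 fell short of 2-fold with 5 FPKM added before the log, with medians centred and with either equal sum. Of the genes 2-fold apart, 24.4% were higher in PC3 as deposited, 38.1% with equal sums and 38.0% with equal protein-coding sums. As deposited, of the 31 members measured in both lines, 8 were above 0 in both, 10 below 0 in both and 13 of opposite sign. Of 138 other genes of the pathway, 50 were above 0 in both, 49 below 0 in both and 39 of opposite sign. The same share over all genes was not counted, so these counts are not read as a trait of the members. Members of opposite sign included LAMP1, LAMP2, BECN1, PIK3C3 and UVRAG, which were below 0 in 22Rv1 and above 0 in PC3. Some of these signs rest on changes near 0. UVRAG was at -0.009 in 22Rv1, with a counting interval of the log2 ratio from -0.38 to 0.36. PIK3C3 was at 0.05 in PC3, with an interval from -0.11 to 0.22.

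Changes followed transcript length in all genes. The Spearman correlation of change with length across genes was -0.51 in 22Rv1 and -0.37 in PC3, and across the members -0.26 (31 genes) and -0.24 (33 genes), from the same pairs of libraries. Of all genes in 22Rv1, the shortest tercile had a median change of 0.30 and the longest of -0.32, and in PC3 these were 0.10 and -0.24. RB1CC1, with a transcript of 6625 bases, was the longest member, and ULK1 followed with 5310 bases. With the trend removed, ULK1 was the remaining member at 1.5-fold in 22Rv1, with 0.93, and in PC3 there were 0. GABARAP, at 762 bases, was among the shortest, with GABARAPL1 and GABARAPL2. The part of length in these changes was not tested further.

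**Figure D5:**
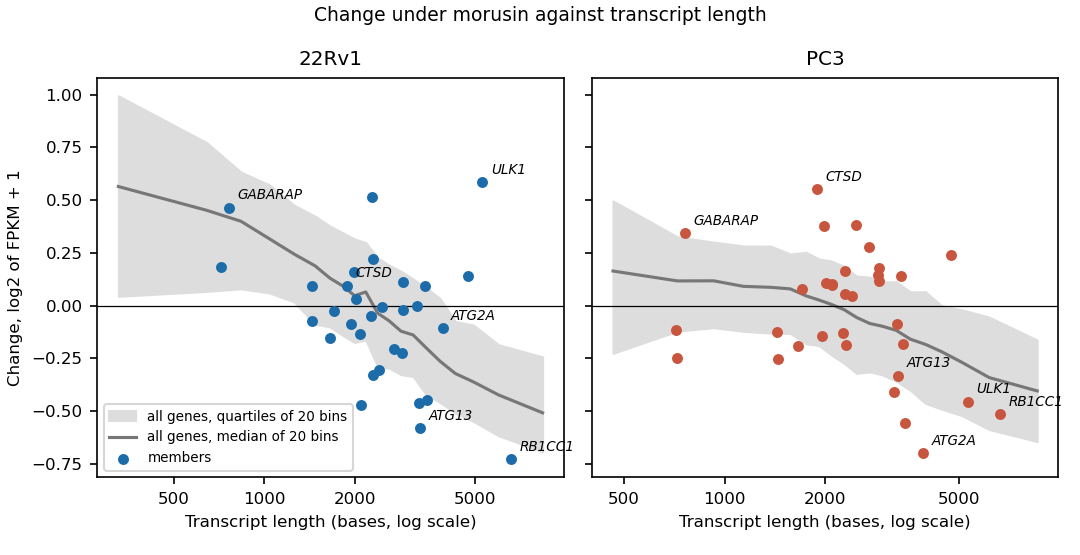
Change under morusin (y axis, log2 of FPKM + 1) against transcript length (x axis, bases on a log scale) in 22Rv1 (left) and PC3 (right). Points are the members, the grey line and band the median and quartiles of all genes in 20 bins of length; the median of all genes is lower at greater length, with medians of 0.30 and -0.32 in the shortest and longest tercile in 22Rv1, and ULK1 lies above the band in 22Rv1.

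A further 153 genes of the pathway in 8 lists were examined beside the members. In 22Rv1, 143 were measured, with 1 at least 2-fold higher and 1 lower, where 3.48% and 1.02% of all genes were. In PC3, 142 were measured, with 1 at least 2-fold higher and 2 lower, where 1.24% and 2.64% of all genes were. At 1.5-fold 22Rv1 had 15 higher and 12 lower, where 13.5% and 9.82% of all genes were. PC3 had 3 higher and 15 lower at this size, where 3.59% and 11.3% of all genes were. In limma 0 of 146 tested genes were called and 26 had an unadjusted p under 0.05, beside 82 and 2587 of all 13980 genes. The smallest adjusted p of limma among the 146 was 0.0632, for TP53INP1.

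The gene at least 2-fold higher in 22Rv1 was IDUA, the lysosomal iduronidase, at 4.67 and 12.7 FPKM in 22Rv1 and 2.74 and 3.86 FPKM in PC3. The gene at least 2-fold lower there was TP53INP1, a p53-induced protein that binds ATG8 proteins, at 8.31 and 3.33 FPKM in 22Rv1 and 2.43 and 0.61 FPKM in PC3. It was 1 of the 2 lower genes in PC3 as well, with changes of -1.10 and -1.09. The other was FNIP1, a partner of folliculin in mTORC1 control, at 8.70 and 3.77 FPKM in PC3 and 6.96 and 3.60 FPKM in 22Rv1. The gene at least 2-fold higher in PC3 was DDIT3 (CHOP), a transcription factor of the endoplasmic reticulum stress response, at 8.33 and 82.1 FPKM in PC3 and 16.4 and 25.9 FPKM in 22Rv1. Its changes were 3.15 in PC3 and 0.63 in 22Rv1. MARS1, on the opposite strand, covers 27.2% of the exonic bases of DDIT3 and was at 66.6 to 85.6 FPKM.

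Genes of lysosomal hydrolases and membrane proteins were more often above 0 as deposited, with 28 of 41 in 22Rv1 and 26 of 40 in PC3 and medians of 0.18 and 0.10, where 49.4% and 44.2% of all genes were above 0. With equal sums 20 of 41 and 20 of 40 were above 0, and 29 of 41 and 28 of 40 lay above the median of all genes. With equal protein-coding sums 19 of 41 and 18 of 40 were above 0. With the length trend removed 26 of 41 and 22 of 40 were, with medians of 0.10 and 0.06. MCOLN1, the lysosomal calcium channel, was at 20.2 and 30.7 FPKM in PC3 and 11.1 and 15.6 FPKM in 22Rv1. FUCA1, the lysosomal fucosidase, was at 6.35 and 3.69 FPKM in PC3. Of the V-ATPase, the proton pump of the lysosome, ATP6V1F and ATP6V1C1 were the extremes in both lines. ATP6V1F was at 59.6 and 115 FPKM in 22Rv1 and 34.6 and 50.6 FPKM in PC3. ATP6V1C1 was at 16.5 and 10.0 FPKM in 22Rv1 and 28.0 and 15.4 FPKM in PC3.

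Genes of fusion with the lysosome had medians of -0.31 in 22Rv1 and -0.17 in PC3 as deposited, with 6 and 4 of 14 above 0, and 5 and 4 with equal sums. With the length trend removed the medians were -0.10 and 0.04, with 6 and 8 of 14 above 0, so that the direction of the median in PC3 turned. VPS18, a subunit of the HOPS tethering complex, was at 10.0 and 4.58 FPKM in 22Rv1 and 26.8 and 13.9 FPKM in PC3. YKT6, a SNARE protein of autophagosomes, was at 49.6 and 38.4 FPKM in 22Rv1 and 87.2 and 44.8 FPKM in PC3. Both were lower in the treated library of each line. VPS11, of the same complex as VPS18, went the other way, at 9.94 and 15.1 FPKM in 22Rv1 and 16.4 and 22.7 FPKM in PC3. VAMP8, the lysosomal SNARE, was at 26.9 and 43.0 FPKM in 22Rv1 and 28.1 and 35.2 FPKM in PC3.

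Among the further core genes, VMP1, a scramblase of the endoplasmic reticulum needed for autophagosome formation, was at 41.6 and 72.1 FPKM in PC3 and at 13.2 and 12.9 FPKM in 22Rv1. PIK3R4, the regulatory subunit of the lipid kinase complex, was at 10.3 and 6.95 FPKM in 22Rv1. Among the further receptors and adaptors, PHB2, an inner mitochondrial membrane protein, was at 283 and 383 FPKM in 22Rv1 and 76.3 and 97.2 FPKM in PC3. TBK1, the kinase that phosphorylates OPTN and SQSTM1, was at 19.3 and 13.3 FPKM in 22Rv1 and 13.1 and 6.75 FPKM in PC3. WDFY3, a large adaptor for aggregates, was at 5.34 and 2.90 FPKM in 22Rv1. Of mTORC1 and AMPK control, MLST8, a subunit of mTOR complexes, was at 21.1 and 26.1 FPKM in PC3, and of the regulators FOXO3, a forkhead transcription factor, was at 6.99 and 6.77 FPKM in PC3 and 7.25 and 4.35 FPKM in 22Rv1.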

How the data were processed

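Total RNA of 4 cultures was made into libraries with the TruSeq RNA v2 kit and read as paired ends, per the labels' protocols. Trimmomatic, HISAT2, StringTie and GRCh38 are named per the submitters' processing notes, with no version. The annotation and the use of strand were not given in the sources used here. Values for 60617 genes were deposited as FPKM by the authors. FPKM is relative to each library's total (sums of 335458 to 408628), so abundant transcripts move all other values. A gene name table gave symbols (60261 IDs matched), and positions and median transcript lengths are from GENCODE 29.

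Each group had 1 library. Changes were log2 of FPKM + 1 for genes at 1 FPKM or more, with sizes of 2-fold and 1.5-fold. The shared response was tested with limma (two-sided, line as block, mean trend, 1 residual degree of freedom, genes at 1 FPKM or more in at least 2 libraries) and Benjamini-Hochberg adjustment at 0.05. In simulated libraries it called 36 of 50 genes raised and 39 of 50 lowered by 1 log2 unit, all of those changed by 2, and 5 of 13780 unchanged genes. The simulated noise had the same spread for every gene, and each change was the same in both lines. These counts therefore do not give the rate of found or false calls in the real libraries. Depth was inferred from single-exon genes of 600 to 5000 bases, where 57 to 81 of 1277 to 1612 low values lay at the step of 1 read pair (tolerance 1.5%). Counting intervals are 95%.

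The members and the other lists were chosen with earlier results of these data known. All members are named. Other genes are named where they reach 5 FPKM and changed 2-fold or lead their list in a line, and some that meet this are not reported here. Alternatives were other added values, filters, scalings, removal of the length trend (lowess), and limma without the mean trend or the block. Tools were limma 3.58.1 in R 4.3.3, and in Python 3.11.15 pandas 2.3.3, numpy 2.4.6, statsmodels 0.14.6, scipy 1.17.1 and matplotlib 3.10.9.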

Additional observations from a re-analysis of the deposited data

Results flagged for a closer look

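Genes whose libraries moved in opposite directions in the 2 lines, at least 2-fold apart, are given here as values. The difference was not tested, since each rests on 1 library per group. ULK1 had a change in PC3 minus that in 22Rv1 of -1.04. FYCO1, an adaptor that links autophagosomes to kinesin, had -1.03, at 7.27 and 9.08 FPKM in untreated and treated 22Rv1 and 9.91 and 5.51 FPKM in PC3. TSC2, the tuberin subunit of the complex that restrains mTORC1, had -1.09, at 25 and 41.1 FPKM in 22Rv1 and 18.5 and 13.8 FPKM in PC3.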

How the results depend on the processing

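No member changed 2-fold within a line under any of the alternatives run. The number at least 1.5-fold changed in 22Rv1, 2 as reported, was 3 with 0.1 FPKM added before the log, 0 with 5 FPKM added, 5 with equal sums, 5 with equal protein-coding sums and 1 with the length trend removed. The 5 under each equal sum were all lower, without ULK1, where 2535 and 2807 of all 13361 genes were lower by this size. Both directions together held 3611 and 3785 genes. Of all genes in 22Rv1, 3117 were past this size as reported. It was 4262 with 0.1 FPKM added, 1270 with 5 FPKM added and 2036 with the length trend removed. In PC3 the number of members, 1 as reported, was 2 with 0.1 FPKM added, 0 with 5 FPKM added and 2 with medians centred. It was 3 with equal sums, 3 with equal protein-coding sums and 0 with the length trend removed. Of all 12907 genes in PC3, 1922 were past this size as reported, 2718 with 0.1 FPKM added and 748 with 5 FPKM added. It was 1809 with medians centred, 2277 with equal sums, 2436 with equal protein-coding sums and 1561 with the length trend removed. The members' median change in 22Rv1 was -0.21 and -0.24 with the equal sums. In PC3 it was -0.039 and -0.0711, below 0 where the value as reported is above it, and -0.01 with the length trend removed. The members called by limma, 0 as reported, were 2 with equal sums and 3 with equal protein-coding sums, and 0 by limma under each other setting. Without the cell line as a block (no replicate block) limma called 0 members and 0 of all genes; replicate numbers here follow accession order and pair nothing, and the line is the block. The member whose change differed 2-fold between lines was lost (0) with 5 FPKM added, with medians centred, with equal sums and with equal protein-coding sums. The number of members at least 2-fold apart between untreated lines ran from 10 to 16. Single members changed sign with equal sums in 9 of 31 cases in 22Rv1 and 3 of 33 in PC3, with equal protein-coding sums in 10 and 7, and with the length trend removed in 7 and 1. The cause of these shifts was not tested. Leaving out a library was not run, since no group has a second.

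Counting error limits OPTN and GABARAPL1 in 22Rv1 most, with under 12 read pairs each. The depths are rough, and counting intervals hold no biological spread, so 17 of 31 members in 22Rv1 and 27 of 33 in PC3 whose interval excludes 0 differ between these libraries and are not shown to differ between the conditions.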
